A study of Rattus norvegicus with 38 samples.

Results

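The genes described here encode the digestive machinery of the lysosome: its proteases, glycosidases, lipid enzymes, sulfatases and phosphatases, its main membrane proteins, the growth factor precursor granulin, the regulator TFEB and subunits of the proton pump. They were taken from a written list of 45 gene symbols, of which 43 had a probe set annotated with that symbol alone, out of 14217 genes measured. The other two, Npc1 and Atp6v0d2, were not analysed here. Each gene is given by the brightest of its probe sets. The 43 genes fall into 8 cysteine proteases, 3 other proteases, 9 glycosidases, 6 lipid enzymes and carriers, 4 sulfatases and phosphatases, 5 membrane proteins, granulin with TFEB, and 6 proton pump subunits.

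Lung RNA came from 38 female rats, 34 weeks old, of lines derived from N:NIH stock and bred apart for low (LCR) or high (HCR) inborn running capacity. The groups were LCR animals exposed to cigarette smoke (12 rats), LCR animals breathing room air as sham (7 rats), HCR animals exposed to smoke (12 rats) and HCR sham animals (7 rats). Exposure ran for 12 weeks on 5 days of each week. Every animal had 1 Affymetrix Rat Genome 230 2.0 array, made from about 25 mg of lung. The labels used here give neither the smoke dose nor the time between the last exposure and sampling. The lines were produced by selective breeding, so a difference between them is not tied to any 1 gene. Sftpc, the surfactant protein gene of alveolar type 2 cells, had an intensity of 9830 or more on all arrays, and the club cell gene Scgb1a1 9614 or more.

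Lysosomes are acidic organelles in which many kinds of hydrolase break down proteins, sugar chains, lipids and nucleic acids. A proton pump, the vacuolar ATPase, drives acid into them, and heavily glycosylated membrane proteins line their inner face. TFEB and its relatives TFE3 and MITF switch on many of these genes through a short DNA element, the CLEAR element, whose core is the palindrome searched for below. In the lung, alveolar macrophages are rich in lysosomes, and alveolar type 2 cells keep surfactant in lamellar bodies, which are related organelles.

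The promoter letters of a few members are shown because they hold, or lack, the core that TFEB and its relatives bind. RefSeq windows of 300 bases (GRCr8, 250 bases before the start site and 50 from it on) matched 34 of the 43 genes by symbol, in 35 windows because Acp5 has 2 starts. The strings searched, on both strands, were the core CACGTG, the core with a T before it or an A after it, the core with both, and the full palindromic CLEAR element. Each longer string contains the shorter ones, so the counts overlap. The core stood in 7 of the 35 windows, against 6.42% of all 33469 rat windows. The core with 1 of the flanking letters stood in 6 (17.1%), against 3.2%. With both flanking letters it stood in 4 (11.4%), those of Lamp1, Ctsd, Atp6v0d1 and Mcoln1, against 0.777%. The full element stood in 0 of the 35 and in 0.233% of all windows. A match is a string of letters and does not show binding. Below, sequences run 5′ to 3′ on the gene's strand, and capitals mark each core with its flanking T or A where present. The Lamp1 window (chr16:83075014-83075313, minus strand) had the most matches of the members, 5, the Ctsd window (chr1:206968772-206969071, minus strand) had 2, and the Ctsk window (chr2:185747298-185747597, plus strand) had none.
Lamp1: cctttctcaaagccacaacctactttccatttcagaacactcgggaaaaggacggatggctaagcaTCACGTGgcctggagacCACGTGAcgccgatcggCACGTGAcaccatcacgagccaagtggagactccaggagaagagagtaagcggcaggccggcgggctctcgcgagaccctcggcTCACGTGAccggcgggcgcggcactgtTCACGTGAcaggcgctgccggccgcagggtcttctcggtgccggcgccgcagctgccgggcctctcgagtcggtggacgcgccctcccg
Ctsd: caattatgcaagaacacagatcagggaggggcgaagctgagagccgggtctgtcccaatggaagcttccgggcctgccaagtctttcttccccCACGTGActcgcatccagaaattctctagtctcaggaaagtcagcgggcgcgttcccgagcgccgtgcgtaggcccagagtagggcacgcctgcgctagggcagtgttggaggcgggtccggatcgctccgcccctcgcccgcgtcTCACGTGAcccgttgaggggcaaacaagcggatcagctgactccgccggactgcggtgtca
Ctsk: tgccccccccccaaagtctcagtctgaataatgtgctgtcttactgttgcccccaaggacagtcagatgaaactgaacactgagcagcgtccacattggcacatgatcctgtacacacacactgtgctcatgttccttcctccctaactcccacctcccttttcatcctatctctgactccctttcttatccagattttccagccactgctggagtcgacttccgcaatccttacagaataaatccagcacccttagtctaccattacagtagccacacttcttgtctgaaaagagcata

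The sites of the other 5 genes with the core are shown with 10 bases on either side. They lie at chr19:50357284-50357311 (minus strand) for Atp6v0d1, chr12:6358225-6358251 and chr12:6358251-6358278 (plus strand) for Mcoln1, chr7:1921944-1921969 (plus strand) for Cd63, chr10:105028278-105028304 (plus strand) for Gaa and chr8:122963607-122963633 (plus strand) for Glb1. Their first capital lies 53, 23, 190, 67 and 101 bases upstream of the start site for Atp6v0d1, the first Mcoln1 site, Cd63, Gaa and Glb1. The second Mcoln1 site begins at base 4 of the transcript.
Atp6v0d1: cccattgtggTCACGTGAgatgcagtgc
Mcoln1, first site: gtcaagcttgTCACGTGttcgacccag
Mcoln1, second site: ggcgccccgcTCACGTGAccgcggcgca
Cd63: gggcagcggcCACGTGgcctgtccag
Gaa: gcccacaaacCACGTGAcccacgctgc
Glb1: ggctccggagTCACGTGgcctgcagag

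Before the comparisons, 7 arrays have to be named. HCR sham 0432 had a 3' minus 5' log2 difference of 2.06 for the Actb control probe sets and 1.2 for those of Gapdh, a sign of RNA breakdown, against group medians of 0.65 to 0.842 and of 0.0386 to 0.163. The mean of skeletal muscle markers on HCR sham 0433 was 5.0, and that of fat markers 1.7 (log2, relative to all arrays). HCR smoke 0410, 0414, 0415 and 0417 and LCR sham 0442 stood apart in the heart muscle list mean, at 1.74 to 4.08. These 6 arrays were picked by hand and include no LCR smoke array. The next highest heart muscle means were not much lower, 1.35 on HCR sham 0432 (fat 0.70) and 1.11 on LCR sham 0440. Results that move without the 6 arrays as a set, or without HCR sham 0432 alone, are given with and without them. No fit left out all 7 together. Changes below are differences of mean log2(intensity + 16) with the standard error of limma's linear model over all 38 arrays. That scale understates changes of dim genes. A gene was called when its p, adjusted over all 14217 genes, was under 0.05.

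Smoke raised most lysosomal genes in the LCR line. Of the 43, 33 were higher and 2 lower in LCR smoke lungs, against 22.7% and 27.9% of all genes (50.6% in either direction). Their median change was 0.33 log2, against -0.0046 over all genes. A change of at least 1.5-fold was measured for 10 genes, all upward, and the share of all genes past that fold was not counted. On 22 genes every LCR smoke array lay above every LCR sham array, which held for 5.9% of all genes. On 1 gene, Arsa, every smoke array lay below, as for 8.55% of all genes. In lung tissue, more cells of a type and more RNA per cell cannot be told apart. Array quality measures moved with smoke as well. The Actb 3' minus 5' difference was 0.586 to 0.733 (median 0.65) in LCR smoke lungs, against 0.689 to 1.08 (median 0.842) in LCR sham lungs, and in HCR 0.596 to 0.863 (median 0.66) under smoke, against 0.626 to 2.06 (median 0.718) under sham. The interquartile range of log2 values averaged 2.91 in LCR smoke lungs, against 3.0 in LCR sham lungs, and 2.86 in HCR smoke lungs, against 2.99 in HCR sham lungs. With the Actb difference in the model 37 genes were called in LCR, and with the interquartile range 36, and in HCR either gave 26.

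In the HCR line 27 of the 43 genes were higher and 4 lower after smoke, against 17.7% and 30.4% of all genes (48.0% in either direction). The median change was 0.16 log2, against -0.027 over all genes. A change of at least 1.5-fold was measured for 4 genes, Ctsk, Acp5, Ctsd and Ctsz, again without a count over all genes. Every HCR smoke array lay above every HCR sham array for 2 genes, Ctsd and Cd63, against 1.58% of all genes, and below for Arsa, against 4.28%. The 2 smoke comparisons use different animals. All 27 genes called higher in HCR were among the 33 called higher in LCR, and 12.3% of all genes were called higher in both. Arsa and Smpd1 were lower in both lines, as were 20.7% of all genes, and Gla was higher in LCR and lower in HCR, a pattern of 0.26% of all genes.

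**Figure D1:**
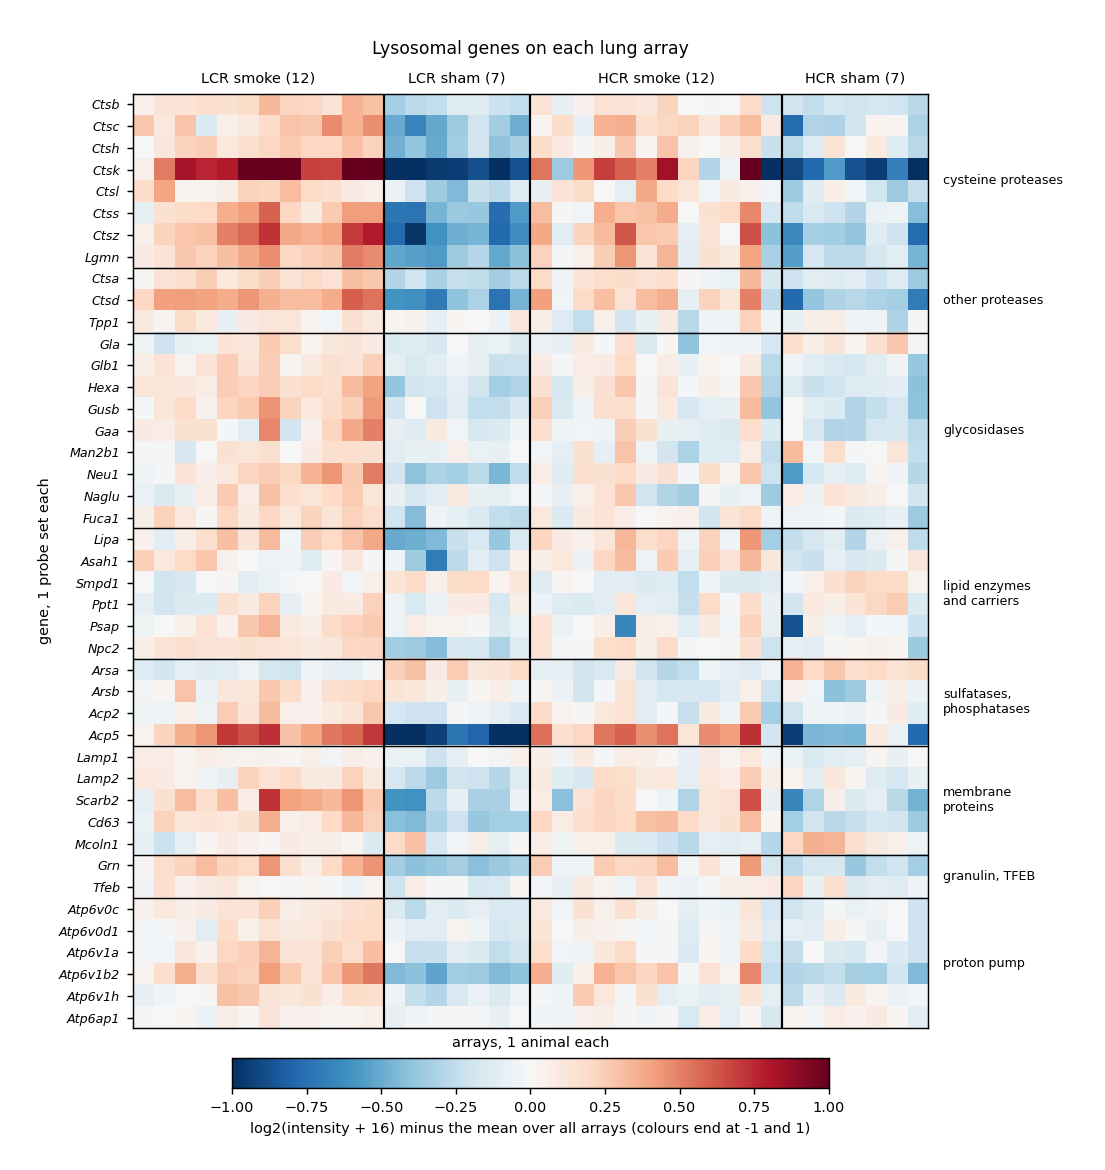
Each row is 1 lysosomal gene, grouped by role, and each column 1 array, with colour for log2(intensity + 16) minus that gene's mean over all 38 arrays. LCR smoke columns are mostly red and LCR sham columns mostly blue, HCR smoke and HCR sham columns show paler versions of both, and Arsa, Smpd1 and Mcoln1 run the other way or show little change in LCR.

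**Figure D2:**
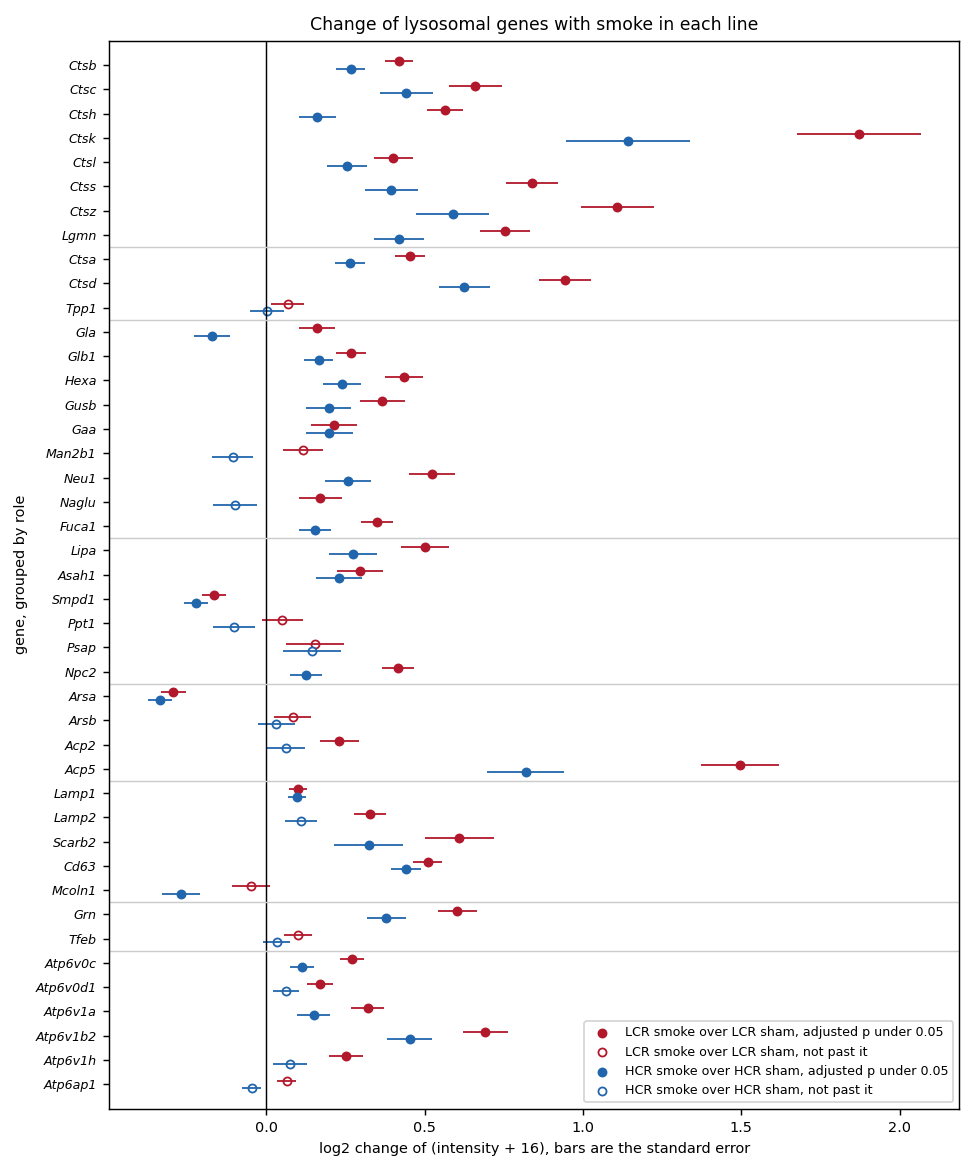
Change with smoke of each lysosomal gene, as the log2 difference of (intensity + 16), in LCR (red) and HCR (blue) with standard errors, and filled points where the adjusted p was under 0.05. The LCR point lies to the right of the HCR point for all 43 genes, and Ctsk has the largest change in both lines.

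Every cysteine protease measured was called higher after smoke, 8 of 8 in each line, against 22.7% of all genes in LCR and 17.7% in HCR. Ctsk encodes cathepsin K, a collagen-cleaving protease best known from osteoclasts. It had intensities of 149.6 to 423 (median 264.4) in LCR smoke lungs, against 49.84 to 71.67 (median 66.58) in LCR sham lungs. In HCR Ctsk had 63.11 to 364.7 (median 205.7) in smoke lungs, against 48.56 to 92.29 (median 71.45) in sham lungs. The LCR groups were far apart, and in HCR only the array HCR smoke 0419 fell within the sham range. The change was 1.87 ± 0.20 log2 in LCR (SE, limma adjusted p = 1.25e-09) and 1.14 ± 0.20 in HCR (adjusted p = 1.34e-05), or 3.66-fold and 2.21-fold.

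Ctsz, the carboxypeptidase cathepsin Z, had 775.6 to 1306 (median 982.8) in LCR smoke lungs, against 373.4 to 536.8 (median 479.5) in LCR sham lungs, with no overlap. In HCR Ctsz had 558.9 to 1175 (median 887.1) under smoke, against 432 to 685 (median 584.4) under sham, and 11 of 12 smoke arrays lay above the highest sham array. The changes were 1.11 ± 0.12 in LCR and 0.59 ± 0.12 in HCR (limma adjusted p = 1.12e-09 and 7.91e-05). Ctss, cathepsin S, which trims the invariant chain of MHC class II molecules, had 1412 to 2287 (median 1784) in LCR smoke lungs, against 887.6 to 1168 (median 1018) in LCR sham lungs. In HCR Ctss had 1341 to 2114 (median 1785) under smoke, against 1119 to 1461 (median 1310) under sham. Smoke arrays of both lines had like medians, and the LCR sham median was the lowest. The change was 0.84 ± 0.08 in LCR and 0.40 ± 0.08 in HCR.

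Lgmn, the asparaginyl endopeptidase legumain, had 1905 to 2568 (median 2171) in LCR smoke lungs, against 1211 to 1477 (median 1254) in LCR sham lungs. In HCR Lgmn had 1432 to 2450 (median 1981) under smoke, against 1220 to 1667 (median 1498) under sham. The LCR groups did not overlap, and 10 of 12 HCR smoke arrays exceeded all HCR sham arrays. The changes were 0.75 ± 0.08 and 0.42 ± 0.08. Ctsc, the dipeptidyl peptidase that activates granule proteases of immune cells, had 1120 to 1713 (median 1486) in LCR smoke lungs, against 775.4 to 1074 (median 874.5) in LCR sham lungs. Its HCR values were 1162 to 1588 (median 1415) under smoke, against 716.6 to 1263 (median 997.6) under sham. It changed by 0.66 ± 0.08 in LCR, where the groups were apart, and by 0.44 ± 0.08 in HCR, where they overlapped.

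Ctsb, cathepsin B, a broad endopeptidase, had 4195 to 5156 (median 4560) in LCR smoke lungs, against 3186 to 3711 (median 3418) in LCR sham lungs. In HCR Ctsb had 3500 to 4728 (median 4272) under smoke, against 3339 to 3579 (median 3530) under sham. The groups were apart in LCR, and 1 HCR smoke array fell among the sham arrays. Ctsb rose by 0.42 ± 0.04 in LCR and 0.27 ± 0.04 in HCR. Ctsl, cathepsin L, rose by 0.40 ± 0.06 and 0.25 ± 0.06. Ctsh, the aminopeptidase cathepsin H, which also processes surfactant proteins in type 2 cells, had 4312 to 5289 (median 5002) in LCR smoke lungs, against 3036 to 3809 (median 3291) in LCR sham lungs. In HCR Ctsh had 3711 to 5260 (median 4508) under smoke, against 3559 to 4762 (median 3959) under sham. LCR arrays separated fully and HCR arrays overlapped widely, with changes of 0.56 ± 0.06 and 0.16 ± 0.06 (limma adjusted p = 9.42e-10 and 0.0208). The HCR call of Ctsh ended without HCR sham 0432 or without HCR sham 0439 (adjusted p = 0.0703 and 0.0706).

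Among the other proteases, 2 of 3 rose in each line, against 22.7% of all genes in LCR and 17.7% in HCR. Ctsd, the aspartic protease cathepsin D, had 3882 to 5073 (median 4393) in LCR smoke lungs, against 2007 to 2689 (median 2208) in LCR sham lungs. In HCR Ctsd had 2796 to 4767 (median 3891) under smoke, against 1949 to 2759 (median 2646) under sham. Neither line showed any overlap between smoke and sham. Ctsd rose by 0.94 ± 0.08 in LCR and by 0.63 ± 0.08 in HCR (limma adjusted p = 3.66e-11 and 2.59e-07). Ctsa, a carboxypeptidase that also shields neuraminidase and beta-galactosidase, rose by 0.45 ± 0.05 and 0.27 ± 0.05. Tpp1, a tripeptidyl peptidase, had changes of 0.07 ± 0.05 and 0.0026 ± 0.05 and was not called.

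**Figure D3:**
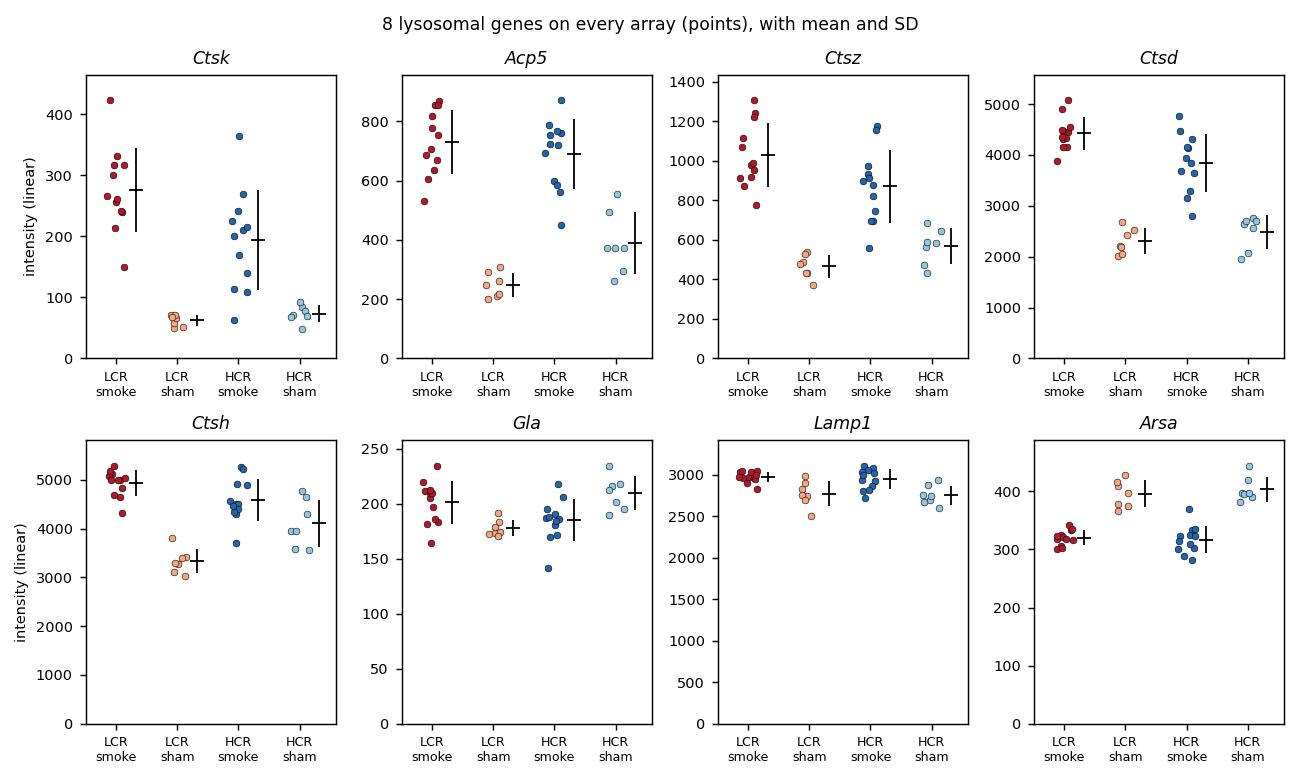
Intensity (linear axis from 0) of 8 lysosomal genes on every array in LCR smoke, LCR sham, HCR smoke and HCR sham lungs, with the group mean and SD as a bar beside the points. Ctsd smoke and sham arrays do not overlap in either line, Lamp1 changes little and Arsa is lower in both smoke groups. Ctsh and Acp5 sham arrays are mostly lower in LCR than in HCR, with some overlap.

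Glycosidases take sugars off glycoproteins, glycolipids and glycogen. Of 9, 8 were called higher in LCR smoke lungs, against 22.7% of all genes, with Man2b1 not called. In HCR 6 were higher and Gla was lower, against 17.7% and 30.4% of all genes. Man2b1 and Naglu were not called there. Neu1, the lysosomal sialidase, had 82.87 to 129.2 (median 101.9) in LCR smoke lungs, against 58.1 to 73.45 (median 65.9) in LCR sham lungs. Its HCR values were 72.34 to 107.1 (median 94.38) under smoke, against 52.77 to 88 (median 77.4) under sham. Neu1 had the largest glycosidase change in both lines, at 0.52 ± 0.07 and 0.26 ± 0.07, with separate groups only in LCR. Hexa, the alpha subunit of beta-hexosaminidase, rose by 0.44 ± 0.06 and 0.24 ± 0.06. Gusb, beta-glucuronidase, rose by 0.37 ± 0.07 and 0.20 ± 0.07, and Fuca1, alpha-fucosidase, by 0.35 ± 0.05 and 0.15 ± 0.05. Glb1, beta-galactosidase, rose by 0.27 ± 0.05 and 0.17 ± 0.05, and Gaa, which degrades glycogen, by 0.21 ± 0.07 and 0.20 ± 0.07. Naglu, an enzyme of heparan sulfate breakdown, rose by 0.17 ± 0.07 in LCR (limma adjusted p = 0.0381), a call that ended when any of 10 single arrays was left out, and had a change of -0.10 ± 0.07 in HCR. Man2b1, an alpha-mannosidase, had 0.12 ± 0.06 in LCR and -0.11 ± 0.06 in HCR. Its other probe set was very dim, with a mean intensity of 7.2. It was called lower in LCR, at -0.12 ± 0.03 (limma adjusted p over probe sets = 0.00122), and was not called in HCR (0.963).

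Gla, alpha-galactosidase A, was the member called in opposite directions. It had 164.1 to 233.8 (median 207.1) in LCR smoke lungs, against 170.7 to 191.9 (median 173.9) in LCR sham lungs. In HCR Gla had 141.4 to 217.6 (median 186.6) under smoke, against 190 to 234.5 (median 212.2) under sham. The groups overlapped in both lines, with 11 of 12 LCR smoke arrays above the LCR sham mean and 11 of 12 HCR smoke arrays below the HCR sham mean. The change was 0.16 ± 0.06 in LCR (limma adjusted p = 0.0179) and -0.17 ± 0.06 in HCR (adjusted p = 0.0124). The HCR call ended with quantile normalization (adjusted p = 0.154), with the Gapdh degradation measure in the model (0.0715) and with each array's interquartile range in the model (0.938). A second Gla probe set of like brightness gave 0.16 ± 0.06 in LCR (adjusted p over probe sets = 0.0245) and -0.12 ± 0.06 in HCR, not called (0.0914), so the call in HCR rests on 1 of 2 probe sets. For Gaa and Neu1 a dimmer probe set was likewise not called in HCR (0.153 and 0.0759), at 0.16 ± 0.09 and 0.14 ± 0.07.

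Of 6 lipid enzymes and carriers measured, 3 rose and 1 fell in each line. Among all genes 22.7% rose and 27.9% fell in LCR, and 17.7% rose and 30.4% fell in HCR. Lipa, the acid lipase that frees cholesterol from its esters, had 382.7 to 543.4 (median 469.4) in LCR smoke lungs, against 287.1 to 369 (median 313.5) in LCR sham lungs. In HCR Lipa had 322.1 to 563.2 (median 459.5) under smoke, against 333.9 to 426.2 (median 365.5) under sham. It rose by 0.50 ± 0.08 in LCR, with no overlap, and by 0.27 ± 0.08 in HCR, with overlap. Asah1, acid ceramidase, rose by 0.30 ± 0.07 and 0.23 ± 0.07, and its second probe set had 0.09 ± 0.12 in HCR, not called (adjusted p over probe sets = 0.617). Npc2, which carries cholesterol inside the lysosome, had 5590 to 6241 (median 5933) in LCR smoke lungs, against 3974 to 4919 (median 4317) in LCR sham lungs. Its HCR values were 4646 to 6176 (median 5525) under smoke, against 4147 to 5531 (median 5407) under sham. The LCR groups were well apart and the HCR groups mixed, with changes of 0.42 ± 0.05 and 0.13 ± 0.05 (limma adjusted p = 3.2e-08 and 0.0413). The HCR call of Npc2 ended when any of 9 single arrays was left out, HCR sham 0439 among them (adjusted p = 0.19).

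Smpd1, acid sphingomyelinase, fell. It had 969.8 to 1181 (median 1108) in LCR smoke lungs, against 1146 to 1278 (median 1232) in LCR sham lungs. In HCR Smpd1 had 940.2 to 1136 (median 1024) under smoke, against 1095 to 1305 (median 1240) under sham. All 12 smoke arrays of each line lay below that line's sham mean, although the ranges overlapped. It fell by 0.17 ± 0.04 on the log2 scale in LCR and by 0.22 ± 0.04 in HCR (limma adjusted p = 0.000478 and 1.46e-05). Ppt1, a thioesterase that takes palmitate off proteins, had changes of 0.05 ± 0.07 and -0.10 ± 0.07 and was not called. Psap, the saposin precursor, had 2604 to 3415 (median 2930) in LCR smoke lungs, against 2448 to 2826 (median 2660) in LCR sham lungs. In HCR Psap had 1704 to 3158 (median 2741) under smoke, against 1467 to 2809 (median 2610) under sham. The lowest values came from HCR smoke 0412 and HCR sham 0432, which also had the highest Gapdh 3' minus 5' difference of their groups (0.394 and 1.2). Its changes of 0.16 ± 0.09 and 0.14 ± 0.09 were not called.

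The sulfatases and phosphatases held both the second largest rise and the largest fall. Acp5, tartrate-resistant acid phosphatase, an osteoclast and macrophage enzyme, had 531.4 to 868 (median 730.2) in LCR smoke lungs, against 201.9 to 306.8 (median 249.2) in LCR sham lungs. In HCR Acp5 had 449.9 to 870.5 (median 720.9) under smoke, against 261.6 to 554.7 (median 372.8) under sham. Smoke arrays had like medians in both lines, and LCR sham arrays were lower than most HCR sham arrays. Acp5 rose by 1.496 ± 0.12 in LCR (limma adjusted p = 9.78e-12) and by 0.82 ± 0.12 in HCR (adjusted p = 1.81e-06). Acp2, the lysosomal acid phosphatase, rose by 0.23 ± 0.06 in LCR and had 0.06 ± 0.06 in HCR. Of 3 further osteoclast markers measured, Tnfrsf11a, the receptor RANK, rose by 0.70 ± 0.14 in LCR and 0.37 ± 0.14 in HCR. The other two were not called, and Calcr, the calcitonin receptor, did not exceed an intensity of 6.975 on any array.

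Arsa, arylsulfatase A, which takes sulfate off sulfatide, had 300 to 341.5 (median 319.8) in LCR smoke lungs, against 366.4 to 427.4 (median 396.6) in LCR sham lungs. In HCR Arsa had 281.3 to 369.7 (median 318.7) under smoke, against 381.7 to 444.3 (median 396.4) under sham. Smoke arrays lay below sham arrays without overlap in both lines. Arsa fell by 0.29 ± 0.04 on the log2 scale in LCR and by 0.33 ± 0.04 in HCR (limma adjusted p = 1.2e-07 and 3.03e-08). Arsb, the sulfatase of dermatan sulfate, had changes of 0.08 ± 0.06 and 0.03 ± 0.06 by its brighter probe set. Its dimmer probe set gave 0.51 ± 0.09 in LCR (limma adjusted p over probe sets = 1.27e-05) and 0.10 ± 0.09 in HCR, so the 2 probe sets disagree on whether Arsb changed in LCR.

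Of the 5 membrane proteins, 4 were called higher in LCR, against 22.7% of all genes. In HCR 3 were higher and Mcoln1 was lower, against 17.7% and 30.4% of all genes. Cd63, a tetraspanin of lysosomes and exosomes, had 2457 to 3306 (median 2848) in LCR smoke lungs, against 1889 to 2225 (median 2023) in LCR sham lungs. In HCR Cd63 had 2605 to 3201 (median 2958) under smoke, against 1991 to 2291 (median 2193) under sham. Smoke and sham were separate in both lines, and the changes were 0.51 ± 0.05 and 0.44 ± 0.05. Scarb2, the receptor that brings glucocerebrosidase to the lysosome, had 269.1 to 484.3 (median 358.2) in LCR smoke lungs, against 183.2 to 275.2 (median 225.9) in LCR sham lungs. Its HCR values were 210.8 to 456.4 (median 307.7) under smoke, against 176.9 to 298.8 (median 233.3) under sham. It rose by 0.61 ± 0.11 and 0.32 ± 0.11, with overlap in both lines, and its HCR call ended without HCR sham 0432 (adjusted p = 0.0531).

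Lamp1 and Lamp2 encode abundant glycoproteins of the lysosomal membrane. Lamp1 had 2826 to 3040 (median 2973) in LCR smoke lungs, against 2503 to 2984 (median 2761) in LCR sham lungs. In HCR Lamp1 had 2723 to 3110 (median 2971) under smoke, against 2599 to 2933 (median 2740) under sham. The ranges overlapped and the rises were small, at 0.10 ± 0.03 in LCR and 0.098 ± 0.03 in HCR (limma adjusted p = 0.00375 and 0.00513). Lamp2 had 1789 to 2234 (median 2023) in LCR smoke lungs, against 1470 to 1731 (median 1640) in LCR sham lungs. In HCR Lamp2 had 1696 to 2251 (median 2030) under smoke, against 1676 to 2053 (median 1802) under sham. Lamp2 rose by 0.33 ± 0.05 in LCR, with separate groups, and its HCR change of 0.11 ± 0.05 was not called (adjusted p = 0.0682). Mcoln1, a lysosomal calcium channel, had 95.35 to 121 (median 115.4) in LCR smoke lungs, against 99.13 to 142.2 (median 114.5) in LCR sham lungs. In HCR Mcoln1 had 90.08 to 119.5 (median 104.4) under smoke, against 109.1 to 149.8 (median 128.7) under sham. It had -0.05 ± 0.06 in LCR, not called, and fell by 0.27 ± 0.06 on the log2 scale in HCR (adjusted p = 0.000388).

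Grn, progranulin, whose cleavage products are needed for lysosome function, had 1565 to 2094 (median 1775) in LCR smoke lungs, against 1144 to 1220 (median 1180) in LCR sham lungs. In HCR Grn had 1366 to 2065 (median 1727) under smoke, against 1172 to 1369 (median 1286) under sham. It rose by 0.60 ± 0.06 in LCR, without overlap, and by 0.38 ± 0.06 in HCR, where 11 of 12 smoke arrays exceeded all sham arrays. Tfeb itself had 118.6 to 141.1 (median 126.4) in LCR smoke lungs, against 105.3 to 131.4 (median 122.1) in LCR sham lungs. In HCR Tfeb had 117.5 to 136.9 (median 124.9) under smoke, against 111.4 to 146.7 (median 117.2) under sham. These ranges overlapped, and its changes of 0.10 ± 0.04 and 0.03 ± 0.04 were not called (limma adjusted p = 0.0538 and 0.568). The arrays measure Tfeb RNA and not where its protein is in the cell.

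Of the 6 proton pump subunits, 5 rose in LCR and 3 in HCR, against 22.7% and 17.7% of all genes. Atp6v1b2, a subunit of the ATP-hydrolysing sector, had 703.7 to 998.2 (median 822.3) in LCR smoke lungs, against 472.9 to 535.2 (median 512.4) in LCR sham lungs. In HCR Atp6v1b2 had 576.9 to 962.3 (median 779.9) under smoke, against 500.7 to 598.8 (median 556.2) under sham. It rose by 0.69 ± 0.07 in LCR, without overlap, and 0.45 ± 0.07 in HCR, where 1 smoke array reached into the sham range. Atp6v1a, the catalytic subunit, had 801.4 to 1034 (median 912.2) in LCR smoke lungs, against 686.1 to 817.1 (median 707.9) in LCR sham lungs. Its HCR values were 708.8 to 936.4 (median 806.9) under smoke, against 690.5 to 815.3 (median 734.9) under sham. The groups overlapped in both lines, and it rose by 0.32 ± 0.05 and 0.15 ± 0.05. Atp6v0c, of the membrane ring, rose by 0.27 ± 0.04 and 0.11 ± 0.04. Its HCR call ended without HCR sham 0432 or HCR sham 0439 (adjusted p = 0.0515 and 0.0532).

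Atp6v0d1, of the pump's membrane sector, had 1339 to 1661 (median 1543) in LCR smoke lungs, against 1272 to 1478 (median 1340) in LCR sham lungs. In HCR Atp6v0d1 had 1316 to 1575 (median 1454) under smoke, against 1246 to 1502 (median 1373) under sham. The rise of 0.17 ± 0.04 in LCR was called and the HCR change of 0.06 ± 0.04 was not. Atp6v1h, a regulatory subunit, rose by 0.25 ± 0.05 in LCR and had 0.08 ± 0.05 in HCR. The accessory subunit Atp6ap1 had 0.06 ± 0.03 and -0.05 ± 0.03 and was not called. Set beside the promoter letters above, the 4 genes with the core and both flanking letters had LCR and HCR changes of 0.94 and 0.63 (Ctsd), 0.17 and 0.06 (Atp6v0d1), 0.10 and 0.098 (Lamp1), and -0.05 and -0.27 (Mcoln1). Ctsk and Acp5, with the largest rises, had no core in their windows.

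Some calls for smoke ended under other processing, most of them in HCR. With each array's interquartile range in the model, Asah1, Ctsh, Gaa, Gla, Lamp1, Mcoln1 and Npc2 were no longer called in HCR (limma adjusted p between 0.0874 and 0.938). With the Actb degradation measure in the model, Atp6v0c, Atp6v1a, Ctsh, Npc2 and Scarb2 were not called (0.0706 to 0.0916). When only the HCR arrays were fitted, Atp6v0c, Ctsh, Gusb and Npc2 were not (0.0557 to 0.102), and with probe sets averaged per gene Asah1 and Lamp1 were not (0.0928 and 0.498). For Lamp1 that average takes in dim probe sets with mean intensities of 11.5 and 6.2, against 2889 for the one used. Quantile normalization ended the HCR calls of Ctsh, Gla and Npc2 (0.0843 to 0.154), the Gapdh measure those of Ctsh, Gla and Scarb2 (0.0551 to 0.0715), and array weights those of Ctsh and Npc2 (0.0835 and 0.0529). Ctsh and Npc2 were also not called in HCR without the 6 arrays that stood apart in muscle or fat markers (0.0816 and 0.0889). In LCR, Gaa was not called with the interquartile range in the model (0.0518) and Naglu was not without those 6 arrays (0.0545).

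The lines were then set against each other under each exposure. Under smoke, 4 of the 43 genes were called higher in LCR and 0 lower, against 4.61% and 1.7% of all genes (6.32% in either direction). Ctsk had 149.6 to 423 in LCR smoke lungs, against 63.11 to 364.7 in HCR smoke lungs, a difference of 0.55 ± 0.17 (limma adjusted p = 0.0405). Arsb was higher by 0.21 ± 0.05 (adjusted p = 0.0118), Gusb by 0.20 ± 0.06 (adjusted p = 0.0425) and Ctsb by 0.14 ± 0.04 (adjusted p = 0.0247). A dimmer Arsb probe set differed by 0.67 ± 0.07 (limma adjusted p over probe sets = 4.21e-07). Second probe sets of Gaa (0.28 ± 0.08), Gla (0.18 ± 0.05) and Arsa (0.20 ± 0.06) were also called higher (0.0261, 0.0354 and 0.04). Further probe sets of other members were not called. With adjustment over probe sets Ctsk and Gusb had 0.0511 and 0.0532. The ranges of the lines overlapped for every member (0.0492% of all genes lay wholly above and 0.0352% wholly below). At an unadjusted p under 0.05, 26 genes were higher and 0 lower, against 15.5% and 8.72% of all genes (24.2% in either direction), and 41 of 43 differences were above 0, as were 53.2% of those of all genes. The count of 4 became 0 (12 higher at an unadjusted p under 0.05, against 11.4% of all genes) without HCR sham 0433, LCR sham 0442 and HCR smoke 0410, 0414, 0415 and 0417.

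Under sham, 5 genes were called lower in LCR and 0 higher, against 2.34% and 1.39% of all genes (3.73% in either direction). Acp5 had 201.9 to 306.8 in LCR sham lungs, against 261.6 to 554.7 in HCR sham lungs, a difference of -0.59 ± 0.14 (limma adjusted p = 0.00955). Ctss differed by -0.37 ± 0.09 (adjusted p = 0.0187), Ctsh by -0.29 ± 0.06 (adjusted p = 0.00663), Gla by -0.22 ± 0.06 (adjusted p = 0.0443) and Npc2 by -0.21 ± 0.06 (adjusted p = 0.0346). The second Gla probe set differed by -0.11 ± 0.07 and was not called (adjusted p over probe sets = 0.418). A very dim Man2b1 probe set (mean intensity 7.2) was called higher in LCR, by 0.18 ± 0.03 (limma adjusted p over probe sets = 0.0016). LCR and HCR sham arrays overlapped for every member, with 0.239% of all genes wholly above and 0.619% wholly below. Only 8 of the 43 differences were above 0, against 42.5% of those of all genes. Without the same 6 arrays 3 genes were called.

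**Figure D4:**
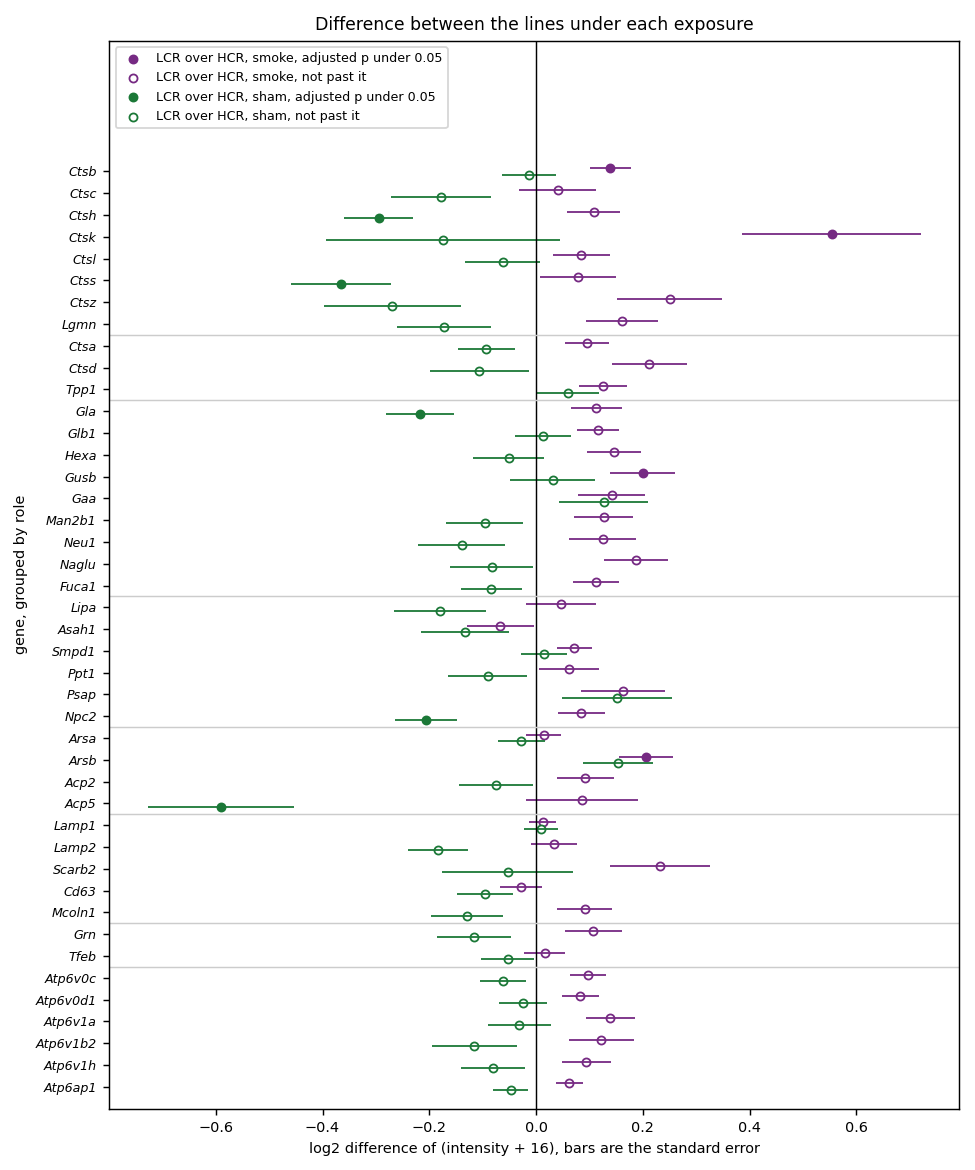
Difference between LCR and HCR for each lysosomal gene, as the log2 difference of (intensity + 16), under smoke (purple) and under sham (green) with standard errors, and filled points where the adjusted p was under 0.05. Most purple points lie right of 0 and most green points left of 0, with the Ctsk difference under smoke and the Acp5 difference under sham farthest out.

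Whether smoke changed the genes more in LCR than in HCR was tested by the interaction, the LCR change minus the HCR change. It was called above 0 for 5 genes and below 0 for none, against 1.52% and 0.352% of all genes (1.87% in either direction). These were Acp5 (0.68 ± 0.17, limma adjusted p = 0.0335), Ctss (0.44 ± 0.12, adjusted p = 0.0408), Ctsh (0.40 ± 0.08, adjusted p = 0.0104), Gla (0.33 ± 0.08, adjusted p = 0.0271) and Npc2 (0.29 ± 0.07, adjusted p = 0.0317). The interaction shares its sham arrays with the line difference under sham, in which the same 5 genes were called, so the calls are not separate evidence. The LCR change exceeded the HCR change for 43 of 43 genes, against 57.8% of all genes, and 25 were above 0 at an unadjusted p under 0.05, as were 13.3% of all genes (5.42% below 0, 18.7% either way). The median interaction was 0.19, against 0.019 over all genes. All members were measured on the same arrays, here and in the line differences, so such tallies of genes are not separate observations. The second Gla probe set gave an interaction of 0.28 ± 0.08, not called (adjusted p over probe sets = 0.061). Ctsk had a large but uncertain interaction of 0.73 ± 0.28 (adjusted p = 0.137). Without HCR sham 0432, 10 genes were called, and without the 6 arrays named for muscle or fat lists, 1.

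Genes of the same pathway outside the 43 were counted beside all genes, of which 22.7% rose and 27.9% fell in LCR, and 17.7% rose and 30.4% fell in HCR. Of 30 other lysosomal hydrolases measured, 13 rose and 3 fell in LCR (median 0.13 log2), and 9 rose and 3 fell in HCR (median 0.084). Naaa, an acid amidase, rose by 1.01 ± 0.09 and 0.62 ± 0.09, and Ifi30, a thiol reductase of antigen processing, by 0.90 ± 0.10 and 0.62 ± 0.10. Dpp7, a dipeptidyl peptidase, rose by 0.71 ± 0.08 in LCR, and Hyal2, a hyaluronidase, fell by 0.59 ± 0.09 on the log2 scale in HCR. Of 25 other membrane proteins, 13 rose and 5 fell in LCR (median 0.18), and 10 rose and 6 fell in HCR (median 0.071). Gpnmb, a glycoprotein of macrophage lysosomes, had 4943 to 6058 (median 5619) in LCR smoke lungs, against 1354 to 2784 (median 1787) in LCR sham lungs. It rose by 1.57 ± 0.13 there and by 1.003 ± 0.13 in HCR. Cd68, a macrophage lysosome protein, rose by 1.80 ± 0.16 and 1.09 ± 0.16. Tpcn1, a lysosomal ion channel, fell by 0.39 ± 0.06 and 0.44 ± 0.06 on the log2 scale.

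Of 17 other proton pump genes, 9 rose and 1 fell in LCR (median 0.11, with 22.7% higher and 27.9% lower among all genes). In HCR 4 rose, a share near the 17.7% of all genes, and 1 fell (median 0.053, with 30.4% of all genes lower). Atp6ap2, the prorenin receptor, rose by 0.30 ± 0.04 in LCR, and Tcirg1, a membrane subunit used by osteoclasts, by 0.29 ± 0.06 and 0.27 ± 0.06. Atp6v0e2 fell by 0.31 ± 0.04 on the log2 scale in HCR. Of 26 genes for sorting to lysosomes, 5 rose and 8 fell in LCR, shares near those of all genes, with a median of 0.0038 and 13 changes above 0. In HCR 0 rose and 11 fell (median -0.094). Vps33a, of the tethering complexes, fell by 0.43 ± 0.08 in both lines, and Sort1, a sorting receptor, by 0.38 ± 0.05 in HCR. Gnptg, a subunit of the enzyme that adds the mannose phosphate tag, fell by 0.25 ± 0.04 in HCR.

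Of 18 genes of the TFEB family and its mTORC1 control, 9 rose and 5 fell in LCR (median 0.14), where the share that fell was near the 27.9% of all genes and 22.7% of all genes rose. In HCR 5 rose and 6 fell (median 0.00080), where 17.7% of all genes rose and the share that fell was near the 30.4% of all genes. Rragc, a GTPase that recruits mTORC1 to lysosomes, rose by 0.39 ± 0.05 in LCR, and Fnip2, a partner of folliculin, by 0.41 ± 0.06 and 0.34 ± 0.06. Tsc2, an inhibitor of mTORC1, fell by 0.30 ± 0.05 in both lines, and Mtor by 0.27 ± 0.05 in HCR. Of 24 autophagy genes, 5 rose and 10 fell in LCR (median -0.08, with 22.7% of all genes higher, near the share here, and 27.9% lower). In HCR 2 rose and 12 fell (median -0.12, with 17.7% and 30.4% of all genes). Uvrag fell by 0.35 ± 0.05 and 0.38 ± 0.05, and the receptor gene Calcoco1 by 0.52 ± 0.07 and 0.59 ± 0.07. Gabarap, an autophagosome membrane protein, rose by 0.25 ± 0.03 in LCR, and the cargo receptor Sqstm1 by 0.30 ± 0.05 in HCR. Of 5 cystatins, inhibitors of cysteine cathepsins, 2 rose in LCR, and 2 rose and 1 fell in HCR. Cstb rose by 0.67 ± 0.06 and 0.40 ± 0.06, Cst7 by 0.72 ± 0.11 and 0.82 ± 0.11, and Cst3 fell by 0.17 ± 0.05 in HCR.

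Markers of other cells moved with smoke as well. Among all genes 22.7% rose and 27.9% fell in LCR, and 17.7% rose and 30.4% fell in HCR. Of 17 macrophage markers measured, 14 rose and 2 fell in LCR (median 0.93 log2), and 12 rose and 3 fell in HCR (median 0.69). C1qb, a complement gene, rose by 1.47 ± 0.12 and 1.06 ± 0.12. Adgre1 and Cd163 fell in both lines, by 0.45 and 0.50 on the log2 scale in LCR, and Csf1r fell in HCR. The macrophage list mean per array lay at -0.0375 to 0.902 (median 0.277) in LCR smoke lungs, against -0.823 to -0.51 (median -0.639) in LCR sham lungs. In HCR it lay at -0.197 to 0.638 (median 0.337) under smoke, against -0.553 to -0.254 (median -0.337) under sham. Smoke and sham did not overlap in either line, and the LCR sham median was the lowest. None of the listed macrophage markers was called higher in LCR under sham and 4 of 17 were lower, against 1.39% and 2.34% of all genes. For 2 of 17, Mrc1 (0.62, limma adjusted p = 0.0361) and Pparg (0.48, adjusted p = 0.0426), the interaction was called, against 1.87% of all genes. Neutrophil markers rose too, 5 of 7 in LCR and 4 of 7 in HCR. Of 10 type 2 cell markers 7 rose in LCR, and 3 rose and 2 fell in HCR, shares not far from those of all genes in HCR. Other lists fell. Of 8 alveolar type 1 markers, 7 fell in LCR and 8 in HCR (medians -0.24 and -0.34 log2), and of 8 endothelial markers 8 fell in LCR and 7 in HCR (medians -0.48 and -0.44). In LCR 5 of 5 B cell markers fell (median -0.85), as did 5 of 8 T and NK cell markers (median -0.48) and 4 of 6 airway markers (median -0.73). In HCR 1 of 5 B cell markers and 0 T and NK cell and airway markers fell. There 1 of 6 airway markers rose, a share near that of all genes. Apart from the fit with the macrophage list mean given next, the part of these shifts in the lysosomal values was not tested.

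Among arrays of the same group, most lysosomal genes went with the macrophage list mean. In the fit with this mean as a covariate, the slope was called above 0 for 27 of 43 genes (62.8%) and below 0 for none, against 5.69% above 0 among all genes (6.75% either way). Slopes were largest for Ctsk (1.63 ± 0.20 log2 per log2), Ctsz (0.96 ± 0.12), Acp5 (0.90 ± 0.15), Scarb2 (0.78 ± 0.14) and Ctss (0.72 ± 0.08). Those of Lamp1 (0.045 ± 0.05), Tfeb (0.012 ± 0.08), Arsa (-0.047 ± 0.07) and Ctsl (-0.054 ± 0.11) were not called. With the covariate, the smoke comparison called 3 genes in LCR, Acp5, Ctsd and Ctsl, against 2.22% of all genes. In HCR it called 4 higher, Cd63, Ctsc, Ctsd and Ctsl, and 8 lower. Taken in either direction, that share of the members was near the 24.8% of all genes. The share of all genes in each direction is not given for this fit. The line difference under sham called 0 against 2.36% of all genes. At an unadjusted p under 0.05, 6 genes were higher and 6 lower there, against 6.67% and 8.51%. Under smoke, by contrast, the line difference called more members with the covariate than without it, as counted below among the alternatives. The interaction called 0, against 0.0492%, with 7 higher at an unadjusted p under 0.05, against 7.93%. Because the list mean did not overlap between smoke and sham, this fit also removes smoke differences that go with it. Smoke and the list mean cannot be told apart. The list mean is an RNA measure and does not count macrophages.

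**Figure D5:**
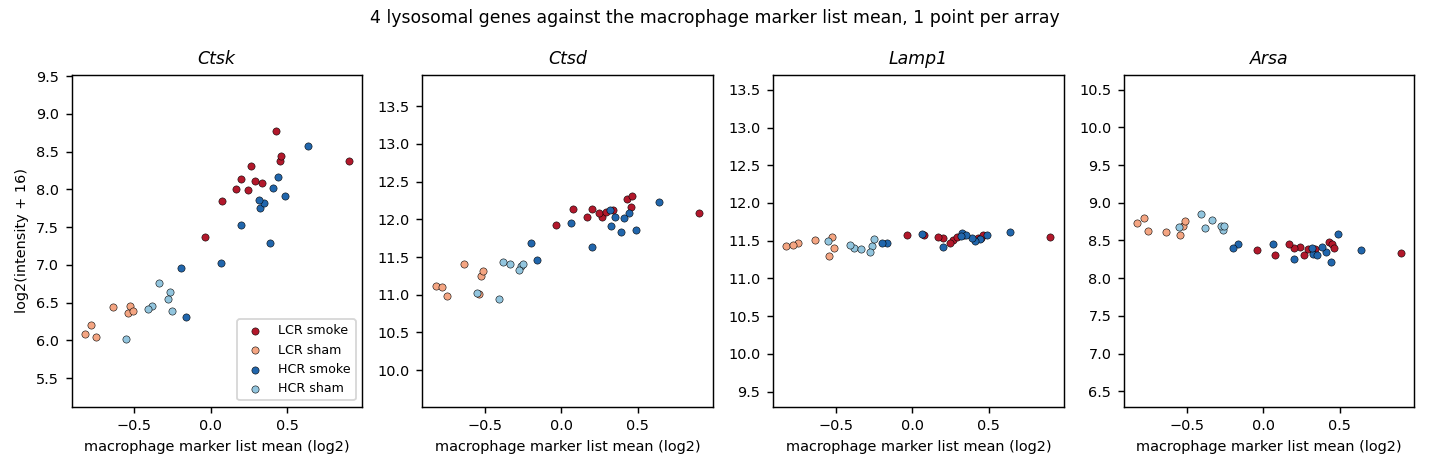
log2(intensity + 16) of 4 lysosomal genes against the macrophage marker list mean (log2, relative to all arrays), 1 point per array, with the same height of axis in each panel. Ctsk climbs steeply with the list mean within and between groups, Ctsd less so, Lamp1 is nearly flat, and Arsa is lower on smoke arrays with no slope inside the groups.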

How the data were processed

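Lung total RNA of 38 rats was measured with 1 array per animal, after RNeasy extraction, a bioanalyzer check and biotin labelling, per the labels' protocols. The deposited table holds intensity values made by the authors on a linear scale, from 2.09 to 11560, for 31099 probe sets. The program that summarised and normalized them is not named in the labels used here. No further normalization was applied before taking log2(intensity + 16). The numbers in the sample titles follow the groups in blocks, and the titles do not say what is numbered. If they follow an order of handling, its effect and the groups cannot be told apart. No scan batch was available here. The number of arrays limits the precision.

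A gene was represented by its brightest probe set annotated with that symbol only (20826 probe sets qualified, 436 had several symbols, 9780 none and 57 were controls). RefSeq's gene list held 20758 of the 20826, and 0 names needed an update. The annotation is that of the array platform and can be old. Group means of the 4 groups were fitted with limma 3.58.1 in R 4.3.3 (lmFit and eBayes, two-sided, 34 residual degrees of freedom, 36.22 with the prior), with 5 contrasts and Benjamini-Hochberg adjustment over 14217 genes at 0.05. Each adjusted p printed is limma's. Arrays correlated at 0.962 to 0.997. The test was checked on simulated data.

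The members, the lists of roles, pathway genes and cell markers, and the alternatives were chosen with earlier results of these data known. Every member is accounted for. Members named with full values were up to 10 per direction and comparison by size of change among those called, plus Tfeb, Lamp1, Lamp2, Ctsd, Ctsb, Psap, Atp6v1a and Atp6v0d1. Of each other pathway list up to 3 called genes by p per smoke comparison were named, and of each marker list up to 2. Adgre1, Cd163, Csf1r, Mrc1, Pparg and the genes of the closing observations are not covered by that rule, and their values were known when they were picked. Lists are described by counts and medians. Promoter windows came from RefSeq (GRCr8). Python 3.11.15, pandas 2.3.3, NumPy 2.4.6 and matplotlib 3.10.9 were used for tables and figures.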

Additional observations from a re-analysis of the deposited data

Results flagged for a closer look

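In 7 of 86 pairs of gene and sham group, 1 array lay far below the rest, a gap that chance gives in about 1 in 20 groups. HCR sham 0439 was the low array for 4 genes. There Npc2 was at 4147 against 4965 to 5531 on the other HCR sham arrays, Fuca1 at 570.1 against 667.9 to 727.1, Hexa at 587.3 against 670.2 to 730.8, and Glb1 at 269.1 against 311.7 to 345.8. Psap was at 1467 on HCR sham 0432, the array with the largest 3' minus 5' difference, against 2313 to 2809 on the others of its group. Tpp1 was at 623.4 on HCR sham 0438 against 736.3 to 817.7. Atp6v0c was at 2249 on LCR sham 0441 against 2437 to 2538 elsewhere in that group.

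For 5 genes the smoke change itself differed between the lines by the interaction test. The LCR change exceeded the HCR change by 0.677 for Acp5 (1.496 in LCR, 0.819 in HCR), by 0.444 for Ctss (0.839 and 0.395), by 0.403 for Ctsh (0.564 and 0.161), by 0.331 for Gla (0.16 and -0.171) and by 0.291 for Npc2 (0.416 and 0.125). Limma's adjusted p was 0.0335, 0.0408, 0.0104, 0.0271 and 0.0317 in that order. Of these, Gla was the gene whose change was called upward in LCR and downward in HCR. Its second probe set was called neither in HCR nor for the interaction (limma adjusted p over probe sets = 0.0914 and 0.061).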

How the results depend on the processing

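No paired analysis was possible because the numbers in the sample names are not shared between groups. The 35 calls for smoke in LCR became 34 to 41, and the 31 in HCR 26 to 33, under every alternative except the macrophage list mean as a covariate, with 3 and 12. The line and interaction counts were less stable.

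The 4 calls between lines under smoke became 2 with quantile normalization, 8 with probe sets averaged per gene, 1 with only the groups compared, 16 with array weights, 7 with either the Gapdh or the Actb covariate, 1 with the interquartile range covariate, 11 with the macrophage covariate and 0 without the 6 arrays that stood apart in muscle or fat lists. The 5 calls under sham became 2 with only the groups compared, 0 with the macrophage covariate and 3 without the 6 arrays. The 5 interaction calls became 13 with array weights, 3 with the interquartile range covariate, 0 with the macrophage covariate and 1 without the 6 arrays. The causes were not tested.

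Leaving out 1 array at a time gave 34 to 36 calls for smoke in LCR, 27 to 32 in HCR, 1 to 10 between lines under smoke, 2 to 6 under sham and 1 to 10 for the interaction. Under smoke the count became 1 without HCR smoke 0419 or LCR smoke 0426, and 2 without HCR smoke 0409, 0415 or 0417 or LCR smoke 0424, 0425, 0427, 0429, 0430 or 0431. It became 7, 8, 9 and 10 without LCR smoke 0422, LCR smoke 0420, HCR smoke 0412 and HCR smoke 0418. Under sham it became 2 without LCR sham 0441 or 0445 and 3 without HCR sham 0434 or 0436 or LCR sham 0440 or 0442. The interaction count became 1 without HCR sham 0434 or 0436, 2 without HCR sham 0435 or LCR sham 0441 or 0445, 3 without HCR sham 0438 or LCR sham 0440, but 10 if HCR sham 0432 was left out. The interaction stayed above 0 for 37 to 43 of the 43 genes in all settings run.

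Single calls ended too. The interaction of Ctss ended without any of 18 arrays (adjusted p up to 0.0758), of Acp5 without any of 7 (up to 0.0706), of Npc2 without any of 6 (up to 0.0635) and of Gla without HCR sham 0434 or 0436. Under smoke Ctsk ended without any of 12 arrays (up to 0.077), Gusb without any of 13 (up to 0.086), and Ctsb without HCR smoke 0419 or LCR smoke 0426. Under sham Gla ended without any of 10 arrays, Npc2 without any of 8, and Ctss without LCR sham 0441 or 0445. For smoke in HCR, Fuca1 ended without HCR sham 0439, Gusb without HCR sham 0435 or 0439, and Gaa without HCR sham 0434 or 0435.

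With the macrophage covariate the sign turned for some genes. In LCR the values were -0.14 for Acp2, -0.0013 for Atp6v1a, -0.15 for Gaa, -0.13 for Gla, -0.14 for Gusb, -0.17 for Naglu and -0.14 for Scarb2. In HCR they were -0.048 for Atp6v0c, -0.058 for Atp6v1a, -0.019 for Ctsh, -0.052 for Ctss, -0.0090 for Ctsz, -0.022 for Fuca1, -0.039 for Gaa, -0.0065 for Glb1, -0.13 for Gusb, -0.027 for Hexa, -0.035 for Lipa, -0.061 for Npc2 and -0.16 for Scarb2.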

Other observations

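Among pathway genes outside the 43, the smoke change also differed between the lines for 6, all with a larger value in LCR than in HCR. These were 3 of 17 other proton pump genes, Atp6v1e1 (0.25, limma adjusted p = 0.0462), Atp6v0e1 (0.235, adjusted p = 0.0449) and Atp6v1f (0.21, adjusted p = 0.0348), 2 of 26 sorting genes, Snx1 (0.25, adjusted p = 0.0317) and Gnptg (0.20, adjusted p = 0.0479), and 1 of 25 other membrane proteins, Cln3 (0.30, adjusted p = 0.0239). Cln3, whose loss causes a lysosomal storage disease of neurons, rose by 0.12 ± 0.05 in LCR and fell by 0.18 ± 0.05 on the log2 scale in HCR. Of 30 other hydrolases, 18 genes of the TFEB family and its control, 24 autophagy genes and 5 cystatins, 0 had a called interaction (limma), against 1.87% of all genes. At an unadjusted p under 0.05 these lists had 12, 6, 5 and 1, against 18.7% of all genes. The alternatives were not run for the genes named here.

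Cst7, which encodes cystatin F, an inhibitor of cathepsins made by immune cells, was higher in LCR than in HCR under both exposures, by 0.45 under smoke (limma adjusted p = 0.00409) and by 0.55 under sham (adjusted p = 0.00864). It had 111.9 to 235.2 (median 153.8) in LCR smoke lungs, against 83.75 to 143.2 (median 104.9) in HCR smoke lungs. Under sham it had 75.68 to 105.1 (median 83.8) in LCR lungs, against 37.29 to 76.11 (median 54.1) in HCR lungs. Cstb and Cst3, of the same list, were lower in LCR under sham, by -0.25 and -0.23 on the log2 scale (adjusted p = 0.0319 and 0.011).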
